A study of Drosophila melanogaster with 4 samples.

Results

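The late genes of the 71E puff are a cluster of small ecdysone-induced genes on chromosome arm 3L of Drosophila melanogaster. The members described here are the 10 genes of the deposited count table named Eig71Ea, Eig71Eb, Eig71Ec, Eig71Ed, Eig71Ef, Eig71Eg, Eig71Eh, Eig71Ei, Eig71Ej and Eig71Ek, out of 9931 genes in all. They were taken by name, and the glue gene Eig71Ee, which lies among them, was left out. The libraries came from salivary glands of larvae in the third instar, raised at 25 °C. JIL-1 null larvae (genotype JIL-1-/-, allele Z2) lacked the chromosomal kinase JIL-1, which phosphorylates histone H3 in the interbands of polytene chromosomes, and wild type larvae were the controls, with 2 libraries each. The sources used here do not give the wild type strain, the age of the larvae within the instar or the number of larvae per library, nor do they say that replicate libraries were made from separate animals. The p-values therefore measure the spread between these libraries, which may be technical. Effects of JIL-1, of strain background and of age or stage within the instar cannot be told apart.

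In the last larval instar the salivary gland makes glue proteins, and the hormone ecdysone then shuts the glue genes down and switches on a cascade. Ecdysone and its receptor (EcR with usp) activate a small set of early puff genes, among them br, Eip74EF and Eip75B, which encode transcription factors. These early factors in turn act on late puff genes, of which the genes at 71E are a classical example, and br and Eip74EF products are known activators of them. The late 71E genes encode small, cysteine-rich, secreted peptides, and they lie in divergent pairs whose members are transcribed away from each other. In the reference annotation the pairs are Eig71Ea with Eig71Eb, Eig71Ec with Eig71Ed, Eig71Ef with Eig71Eg, Eig71Eh with Eig71Ei, and Eig71Ej with Eig71Ek, in that order along the arm. The glue gene Eig71Ee, a high-level product of the gland before the late response, lies between Eig71Ed and Eig71Ef.

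Library totals ran from 8071769 to 11369094 counts in JIL-1 null glands and from 6222322 to 8496047 in wild type glands. JIL-1 itself stood at 55.5 and 55.8 CPM in JIL-1 null glands and at 93.4 and 77.0 CPM in wild type glands, a log2 fold change of -0.61 ± 0.12 (SE; edgeR adjusted p = 0.0147). CPM are read counts relative to TMM-scaled library sizes, and every log2 fold change sets JIL-1 null over wild type. The remaining JIL-1 reads are not placed within the gene by these counts, so that level is a limited check of the label. In fits that left out JIL-1 null library 1 or 2, JIL-1 did not pass the test (edgeR adjusted p = 0.108 and 0.121). The gland markers sage, fkh, CrebA, sens, PH4alphaSG1 and PH4alphaSG2 were present in every library, with summed levels of 1846 and 1912 CPM in JIL-1 null and 1807 and 1550 CPM in wild type. Of these 6 genes PH4alphaSG1 and PH4alphaSG2 rose and sage fell, though sage lost its call with upper quartile scaling, with library totals only and without either JIL-1 null library (edgeR adjusted p between 0.0589 and 0.260). Markers of other tissues were present too. The 6 fat body markers summed to 38288 and 38270 CPM in JIL-1 null and to 56918 and 67710 CPM in wild type. These sums hide opposite changes, since the fat body markers Lsp2, Fbp1 and Fbp2 fell while Lsp1gamma, a larval serum protein gene, had 31509 and 56510 counts in JIL-1 null, against 47 and 60 counts in wild type (log2 fold change 9.18 ± 0.21, edgeR adjusted p = 6.17e-05). The calls of Lsp2 and Fbp1 were lost when either JIL-1 null library was left out. The 6 muscle markers summed to 53.8 and 43.2 CPM in JIL-1 null and to 111 and 54.4 CPM in wild type. For 6 haemocyte markers the sums were 22.6 and 19.6 CPM in JIL-1 null and 51.7 and 51.3 CPM in wild type, with eater at 0 in JIL-1 null library 1 and nimC1 at 0 in JIL-1 null library 2. Most of each haemocyte sum came from srp alone, at 19.9 and 16.6 CPM in JIL-1 null and 40.5 and 44.2 CPM in wild type. Wild type library 2 stood apart in midgut enzymes, since 7 such markers summed to 574 CPM there, against 14.8 and 11.4 CPM in JIL-1 null and 44.8 CPM in wild type library 1. Of these markers LysP did not share this difference, at 34.3 and 34.0 CPM in wild type libraries 1 and 2. LysD, by contrast, stood at 1.88 and 76.3 CPM there. LysP made up most of the sum in wild type library 1, and whether its reads came from midgut was not tested. The part of these tissues in the results below was not tested. In whole glands, fewer cells with a transcript and less of it per cell cannot be told apart.

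Of the 10 late 71E genes, 9 rose and 1 fell in JIL-1 null glands (edgeR's quasi-likelihood test, p-values adjusted by Benjamini-Hochberg over 7958 genes, threshold 0.05). The filter on low counts bears on how this count reads. Eig71Ea, Eig71Eb, Eig71Ec, Eig71Ed, Eig71Ef and Eig71Eg passed it in the libraries of both genotypes, and of these 6 genes 5 rose and 1 fell. Eig71Eh, Eig71Ei, Eig71Ej and Eig71Ek passed it through the JIL-1 null libraries alone, so that they could enter the test only by being higher there, and their 4 calls carry no weight as a count. Over all genes tested, 13.5% rose and 17.2% fell, 30.7% in total. The gene that fell was Eig71Eg. The median log2 fold change of the 6 genes that passed in both genotypes was 2.92, and that of all tested genes was 0.03. Together the 10 genes had 30662 and 24319 counts in JIL-1 null, which is 0.380% and 0.214% of those libraries. In wild type they had 1828 and 4413 counts, or 0.0294% and 0.0519%. Of the 6 genes that passed in both genotypes, 5 had both JIL-1 null libraries above both wild type libraries. That arrangement was seen in 37.2% of all tested genes. For Eig71Eg both lay below, as in 33.1% of all tested genes. Eig71Eh to Eig71Ek also lay above, but the way they passed the filter fixed this in advance. All 10 changes were at least 2-fold in the fitted model, those of Eig71Eh to Eig71Ek against 0 to 4 wild type counts a library. Separation of 2 libraries from 2 is thus common in this table.

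**Figure D1:**
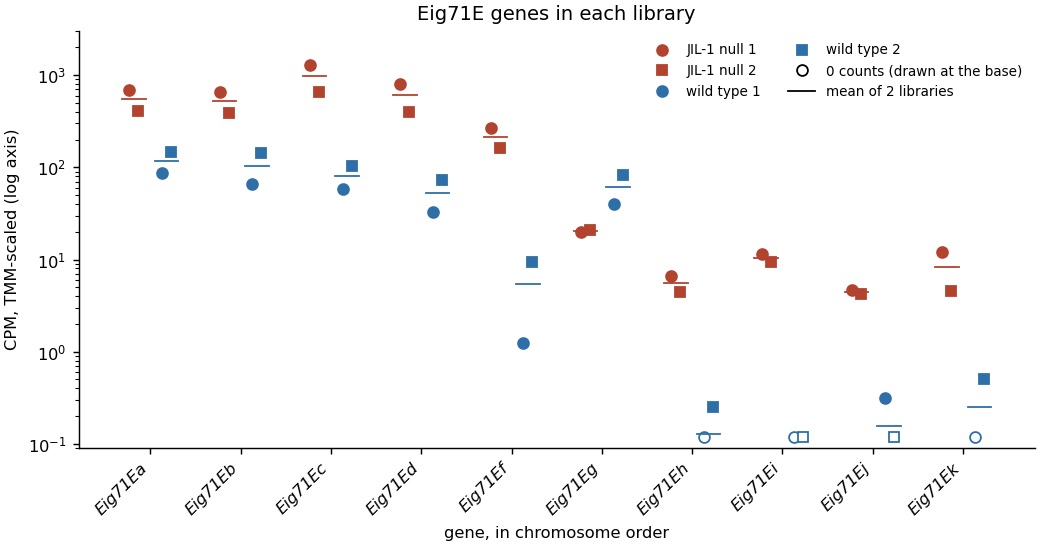
Level of each late 71E gene in each library, in TMM-scaled CPM on a log axis, with JIL-1 null in red and wild type in blue, circles for library 1, squares for library 2 and a line at the mean of both; open symbols at the base are libraries with 0 counts. Red symbols lie above blue ones for 9 genes, and for Eig71Eg the red symbols, at 20.2 and 21.0 CPM, lie below the blue ones, at 39.6 and 82.7 CPM. Of the 9, Eig71Eh to Eig71Ek passed the low-count filter through the JIL-1 null libraries alone.

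Eig71Ea and Eig71Eb, the pair at the end of the cluster next to CG43083, were the most abundant late genes of the wild type gland and rose about alike. Eig71Ea stood at 699 and 411 CPM in JIL-1 null libraries 1 and 2, against 87.7 and 148 CPM in wild type libraries 1 and 2. Its divergent partner Eig71Eb stood at 666 and 388 CPM in JIL-1 null, against 65.4 and 141.5 CPM in wild type. The lower JIL-1 null library was library 2 for both genes, and the higher wild type library was library 2, so the nearest libraries of the groups were still 411 against 148 CPM for Eig71Ea. The log2 fold changes were 2.23 ± 0.34 for Eig71Ea (4.69-fold, edgeR adjusted p = 0.00565) and 2.34 ± 0.41 for Eig71Eb (5.07-fold, edgeR adjusted p = 0.00931). Without wild type library 2 that of Eig71Eb was 3.01.

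Eig71Ec and Eig71Ed, the next pair, rose more. Eig71Ec, the most abundant of the late genes in JIL-1 null glands, stood at 1294 and 652 CPM there, against 58.7 and 103 CPM in wild type. Eig71Ed stood at 811 and 398 CPM in JIL-1 null, against 33.2 and 72.5 CPM in wild type. As in the first pair, JIL-1 null library 1 and wild type library 2 were the higher library of their genotype, and the groups did not overlap. The log2 fold changes were 3.58 ± 0.42 for Eig71Ec (12.0-fold, edgeR adjusted p = 0.00235) and 3.51 ± 0.48 for Eig71Ed (11.4-fold, edgeR adjusted p = 0.003997). For Eig71Ed the log2 fold change was 2.91 without JIL-1 null library 1 and 4.18 without wild type library 2.

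Eig71Ef and Eig71Eg, the pair on the far side of the glue gene, moved in opposite directions. Eig71Ef had 2147 and 1919 counts in JIL-1 null, against 8 and 75 counts in wild type, or 265 and 162 CPM in JIL-1 null, against 1.25 and 9.49 CPM in wild type. The wild type libraries differed more from each other than the JIL-1 null libraries did. The log2 fold change was 5.23 ± 0.62 (37.6-fold, edgeR adjusted p = 0.00249), and it was 4.48 without wild type library 1 and 7.39 without wild type library 2. Eig71Eg had 163 and 248 counts in JIL-1 null, against 253 and 653 counts in wild type. In CPM the JIL-1 null libraries were close together, at 20.2 and 21.0, and the wild type libraries were at 39.6 and 82.7. The log2 fold change of Eig71Eg was -1.58 ± 0.33 (2.99-fold lower, edgeR adjusted p = 0.0166). Without wild type library 2 it was -0.94 (edgeR adjusted p = 0.00435). The call was lost when JIL-1 null library 1 was left out (log2 fold change -1.54, edgeR adjusted p = 0.0867) and likewise for library 2 (-1.63, edgeR adjusted p = 0.116), while the direction held in every alternative run. Within this pair, Eig71Ef made up 92.9% and 88.6% of the pair's counts in JIL-1 null and 3.07% and 10.3% in wild type. Counts of one gene over its partner do not depend on library scaling.

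By contrast, the other pairs with enough counts kept their balance. Eig71Ea made up 51.2% and 51.4% of the counts of its pair in JIL-1 null and 57.3% and 51.2% in wild type. Eig71Ec made up 61.5% and 62.1% of its pair in JIL-1 null and 63.9% and 58.7% in wild type. With 2 libraries a genotype, no difference between these shares was tested, and for both pairs the JIL-1 null shares lay between those of the wild type libraries.

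The remaining 4 genes, Eig71Eh, Eig71Ei, Eig71Ej and Eig71Ek, at the opposite end from Eig71Ea, were at or near the limit of detection in wild type glands. That limit, 3 counts in a library, was 0.470 and 0.380 CPM in wild type libraries 1 and 2. Eig71Eh had 54 and 53 counts in JIL-1 null, against 0 and 2 in wild type, a ratio of 38.4 with a 95% interval from 10.4 to 321 (exact, for counting error alone). Eig71Ei had 93 and 110 counts in JIL-1 null and 0 in both wild type libraries. Set against the limit of 3 counts in each wild type library, it was at least 24.5-fold higher. Eig71Ej had 38 and 50 counts in JIL-1 null, against 2 and 0 in wild type, a ratio of 31.6 with an interval from 8.48 to 265. Eig71Ek had 98 and 54 counts in JIL-1 null, against 0 and 4 in wild type, a ratio of 27.3 with an interval from 10.4 to 101. All 4 were counted in both JIL-1 null libraries, and their wild type levels are limited by depth. Since these genes entered the test through the genotype in which they are high, the adjusted p-values are given as a description. The edgeR adjusted p-values were 0.003998 for Eig71Eh, 0.000771 for Eig71Ei, 0.00599 for Eig71Ej and 0.0110 for Eig71Ek. Eig71Ej lost its call without JIL-1 null library 2 (edgeR adjusted p = 0.0687), and Eig71Ek lost it without JIL-1 null library 1 (log2 fold change 4.00 against a fitted 4.81 with all libraries, edgeR adjusted p = 0.0652) and with limma-voom (adjusted p = 0.0651). Without wild type library 1 the log2 fold changes of Eig71Eh and Eig71Ek were 4.37 and 3.97, and without wild type library 2 that of Eig71Ej was 3.77.

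Levels of different genes were compared per kilobase of exon, as RPKM from the TMM-scaled counts and exon lengths of the current annotation, which run from 403 to 639 bases for these genes. In JIL-1 null glands the genes fell into 4 levels that did not overlap. Eig71Ec (2025 and 1020 RPKM), Eig71Ed (1954 and 958), Eig71Ea (1698 and 997) and Eig71Eb (1410 and 823) overlapped one another. Eig71Ef followed at 632 and 386 RPKM, below all of these. Eig71Eg stood at 48.8 and 50.7 RPKM. The lowest level held Eig71Ei (21.7 and 17.5), Eig71Ek (27.2 and 10.3), Eig71Eh (15.1 and 10.1) and Eig71Ej (11.7 and 10.5). Eig71Ek overlapped the other genes of this level, and Eig71Ei lay above Eig71Eh and Eig71Ej in both libraries. In wild type glands the order of the upper genes was different, with Eig71Ea at 213 and 360 RPKM, Eig71Eb at 139 and 300, Eig71Eg at 95.9 and 200, Eig71Ed at 79.96 and 175 and Eig71Ec at 91.9 and 162, each overlapping the next. Eig71Ef stood at 2.98 and 22.6 RPKM, and the last 4 genes at no more than 1.14 RPKM. By mean RPKM Eig71Eg thus had rank 6 among the 10 genes in JIL-1 null and rank 3 in wild type.

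The authors' deposited table also gives a pooled RPKM per genotype, and for Eig71Eb it is 594.5 in JIL-1 null and 110 in wild type, below the per-library values above. The length implied by the deposited RPKM and counts was 1.83 times the exon length for Eig71Eb and 1.72 times for Eig71Ei, both annotated with 2 transcripts, and between 0.93 and 1.03 times for the 8 members with 1 transcript. Over 1574 genes with 1 annotated transcript the median of this ratio was 1.01, and over 3276 genes with more it was 1.99. Against the summed length of all transcripts it was 0.963 for Eig71Eb and 0.990 for Eig71Ei. The deposited RPKM of these 2 genes are therefore not on the same length scale as those of the other members. In the authors' deposited table the false discovery rate of the 10 genes ran from 0.000187 for Eig71Ei to 0.0128 for Eig71Ek, with a deposited fold of 0.366 for Eig71Eg.

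**Figure D2:**
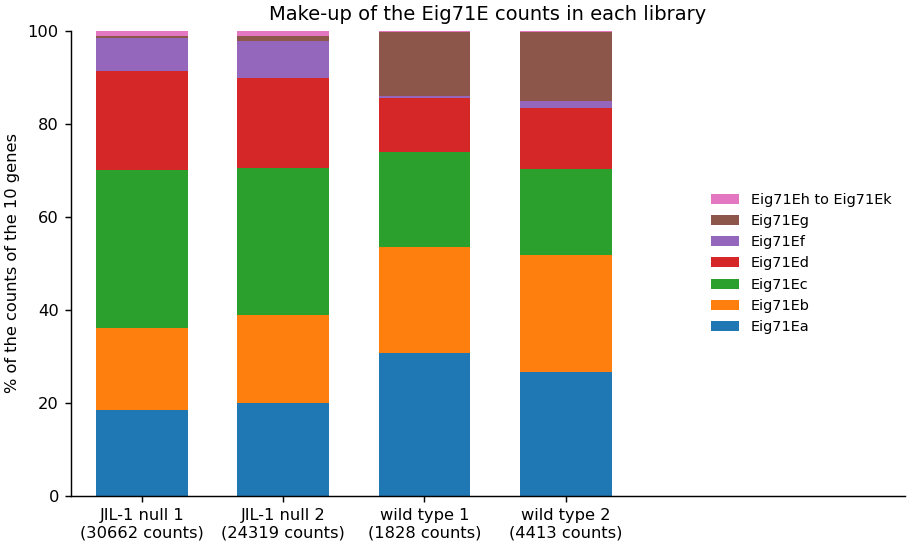
Share of the counts of the 10 late 71E genes taken by each gene, in percent, with 1 bar per library and the number of counts under it; Eig71Eh to Eig71Ek are drawn together. Eig71Ec is the largest share in JIL-1 null (34.1% and 31.7%) and Eig71Ea in wild type (30.6% and 26.6%), and Eig71Eg takes 0.532% and 1.02% in JIL-1 null and 13.8% and 14.8% in wild type.

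The make-up of the late 71E RNA differed between the genotypes and was much alike between libraries of one genotype. Eig71Ec and Eig71Ed took 34.1% and 21.4% of the 10 genes' counts in JIL-1 null library 1 and 31.7% and 19.4% in library 2. In wild type they took 20.5% and 11.6% in library 1 and 18.5% and 12.98% in library 2. Eig71Ef took 7.002% and 7.89% in JIL-1 null libraries 1 and 2, and 0.438% and 1.70% in wild type libraries 1 and 2. These are shares of reads, which also carry the lengths of the genes.

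Libraries of one genotype differed in how much late 71E RNA they held. The 10 genes summed to 3790 and 2055 CPM in JIL-1 null libraries 1 and 2 and to 286 and 559 CPM in wild type libraries 1 and 2. Among JIL-1 null libraries, 9 of the 10 genes were higher in library 1, and among wild type libraries 8 were higher in library 2. Of 7153 genes with at least 10 counts in every library, 48.9% and 51.8% lay in these directions. The 8 include Eig71Eh (0 and 2 counts in wild type libraries 1 and 2) and Eig71Ek (0 and 4), at or near the limit of detection. For the 5 genes with at least 10 counts in every library (Eig71Ea, Eig71Eb, Eig71Ec, Eig71Ed and Eig71Eg), wild type library 2 was between 1.69 and 2.19 times wild type library 1. All 5 had a log2 ratio above 0.5, against 7.98% of 7153 genes with as many counts. The same ratio of JIL-1 null library 1 over 2 exceeded 0.5 for 4 of the 5, the exception being Eig71Eg at 0.962-fold, against 5.30% of the 7153 genes. The sum of the midgut markers was also higher in wild type library 2 (574 against 44.8 CPM), though LysP was not, and their part in this difference was not tested.

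**Figure D3:**
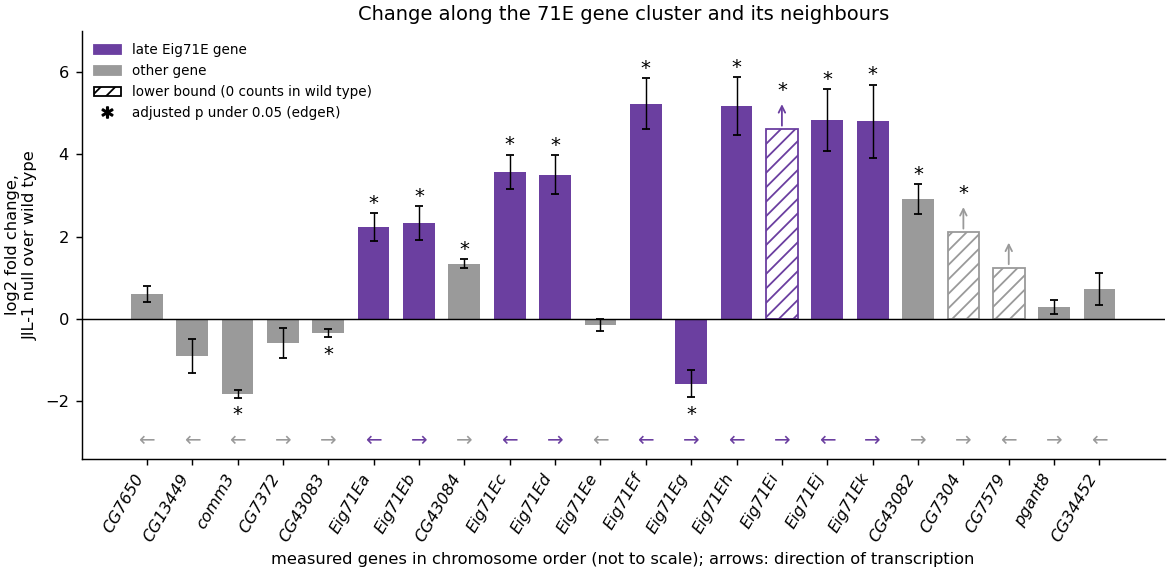
Log2 fold change of JIL-1 null over wild type for each measured gene from 5 genes before Eig71Ea to 5 genes after Eig71Ek, in chromosome order and not to scale, with late 71E genes in purple, other genes in grey, SE bars from edgeR, asterisks for adjusted p under 0.05 and arrows for the direction of transcription. Hatched bars are lower bounds of genes with 0 counts in wild type. Late genes lie between 2.23 and 5.23 apart from Eig71Eg at -1.58, and the glue gene Eig71Ee lies at -0.15.

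The other genes inside and beside the cluster did not all move with it. Eig71Ee, which encodes a glue protein, had 456321 and 630913 counts in JIL-1 null, against 366982 and 505198 in wild type. Its log2 fold change was -0.15 ± 0.14 (edgeR adjusted p = 0.474), and without wild type library 1 it was -0.23 and passed the test (edgeR adjusted p = 0.0120). For every 100 counts of Eig71Ee the late genes had 6.72 and 3.85 counts in JIL-1 null, against 0.498 and 0.874 in wild type. CG43084, an uncharacterised gene between Eig71Eb and Eig71Ec, stood at 377 and 384 CPM in JIL-1 null, against 153 and 147 CPM in wild type. It rose by less than its neighbours (log2 fold change 1.34 ± 0.10, edgeR adjusted p = 0.000631), and its libraries of one genotype lay closer together than those of Eig71Ea to Eig71Ed. The uncharacterised gene CG43082, next to Eig71Ek, had 86 and 79 counts in JIL-1 null, against 7 and 9 in wild type (log2 fold change 2.92 ± 0.36, edgeR adjusted p = 0.00280). Past it, CG7304 had 18 and 17 counts in JIL-1 null and 0 in both wild type libraries, at least 4.31-fold higher (edgeR adjusted p = 0.0169). That call was lost when JIL-1 null library 1 was left out (edgeR adjusted p = 0.140) and likewise for library 2 (edgeR adjusted p = 0.115). CG7579 had 6 and 15 counts in JIL-1 null and 0 in wild type, too few to be tested. Like Eig71Eh to Eig71Ek, CG43082 and CG7304 passed the low-count filter through the JIL-1 null libraries alone. Their adjusted p-values are therefore given as a description. RefSeq lists both CG7304 and CG7579 under synonyms of the polypeptide GalNAc transferases, enzymes that start mucin-type O-glycosylation.

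On the Eig71Ea side, comm3, a gene of the commissureless family, fell to 64.0 ± 0.152 CPM in JIL-1 null, against 227 ± 3.55 CPM in wild type (SD, n = 2 each; log2 fold change -1.82 ± 0.10, edgeR adjusted p = 0.000284). CG43083, which adjoins Eig71Ea in the annotation, had a log2 fold change of -0.34 ± 0.10 (edgeR adjusted p = 0.0447) that did not pass the test under 8 of 12 alternatives. The nearby genes CG7650, CG13449, CG7372, pgant8 and CG34452 were not called. Alternatives changed this for 3 of them. CG7650 was called higher with upper quartile scaling (edgeR adjusted p = 0.0289), with library totals only (0.0373) and without wild type library 2 (0.0315). CG13449 and CG7372 were called lower without wild type library 1, with log2 fold changes of -1.39 (edgeR adjusted p = 0.00632) and -1.05 (0.00472), against -0.91 and -0.58 with all libraries. Without wild type library 2 these were -0.11 and 0.16. Among the nearest 25 measured genes on each side, of which 41 were tested, 4 rose and 5 fell. The 4 include CG43082 and CG7304, which passed the filter through the JIL-1 null libraries alone. Over the whole of arm 3L without the late 71E genes, 198 of 1517 tested genes rose and 280 fell, or 13.1% and 18.5%. JIL-1 lies on the same arm, with 358 measured genes between it and the cluster. Whether reads were counted by strand, and how reads shared by similar genes were treated, is not stated in the labels or headers.

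Of 16 listed genes of the ecdysone receptor and early response, 15 were tested, 1 rose and 9 fell, or 66.7% in all, and the median log2 fold change was -0.80. Of all tested genes, 13.5% rose and 17.2% fell, 30.7% in all. Among the 9, Hr38 had 5 and 7 counts in JIL-1 null, against 18 and 28 in wild type. It passed the low-count filter through the wild type libraries alone, so its call carries no weight as a count. The list also holds Hr46, ftz-f1 and Eip93F, which act in prepupae or later. The nuclear receptor genes Hr4, Eip78C, Eip75B and Hr39 had log2 fold changes of -2.05 ± 0.11, -1.65 ± 0.11, -1.42 ± 0.13 and -1.06 ± 0.10. The gene that rose was the nuclear receptor gene Hr46, at 0.81 ± 0.18. Eip74EF and br, named here for their known role in late 71E transcription after their values were seen, fell as well. Eip74EF, an ETS-domain factor, stood at 329 and 343 CPM in JIL-1 null, against 667 and 657 CPM in wild type (log2 fold change -0.98 ± 0.11, edgeR adjusted p = 0.00186). The zinc-finger gene br stood at 483 and 516 CPM in JIL-1 null, against 883 and 879.6 CPM in wild type (log2 fold change -0.82 ± 0.11, edgeR adjusted p = 0.00360). Counts per gene do not separate the isoforms of either gene. For br, Eip74EF, Hr46 and Hr38, values under the alternative settings are not given here.

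Of 11 other ecdysone-inducible genes, 10 were tested, 1 rose and 5 fell, or 60% in all, with a median of -0.71. As given above, 13.5% of all tested genes rose and 17.2% fell. Whether any of these lists differs from those shares was not tested. The lactate dehydrogenase gene ImpL3, the insulin-binding protein gene ImpL2, the calcium-binding protein gene Eip63F-1 and Cyp18a1, whose product inactivates ecdysone, had log2 fold changes of -1.71 ± 0.12, -1.22 ± 0.16, -1.01 ± 0.17 and -3.41 ± 0.74. Cyp18a1 had 3 and 1 counts in JIL-1 null, against 17 and 16 in wild type, and lost its call when any library was left out. Its log2 fold change was -4.56 without JIL-1 null library 1 and -2.63 without library 2. Cyp18a1 passed the low-count filter through the wild type libraries alone, so its call carries no weight as a count. Of 12 glue and pre-intermoult genes, Eig71Ee included, 11 were tested, 4 rose and 1 fell, or 45.5% in all, with a median of -0.07. The ng genes of puff 3C, active before the glue genes, were those that rose, with log2 fold changes of 1.55 ± 0.27 for ng3 and 1.92 ± 0.40 for ng1 (2.76 without wild type library 1). A further one, ng4, had 12 and 22 counts in JIL-1 null, against 1 and 1 in wild type, and lost its call without JIL-1 null library 1, without wild type library 2 and with DESeq2. The fourth was ng2, whose values under the alternative settings are not given here. The glue gene Sgs1 fell, at -1.25 ± 0.14. Of the ng genes, ng4 passed the filter through the JIL-1 null libraries alone, so its call carries no weight as a count. Of 5 genes of gland cell death, 3 fell and 0 rose in the edgeR test, or 60% in all. These were the initiator caspase gene Nc (-1.75 ± 0.17), the death activator gene rpr (-0.85 ± 0.19) and the apoptosome gene Ark (-0.51 ± 0.12). The calls of ng1, ng3, Sgs1, rpr and Ark were lost when either JIL-1 null library was left out, those of rpr and Ark also without wild type library 2, that of rpr also with DESeq2, and that of Eip63F-1 without JIL-1 null library 1.

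**Figure D4:**
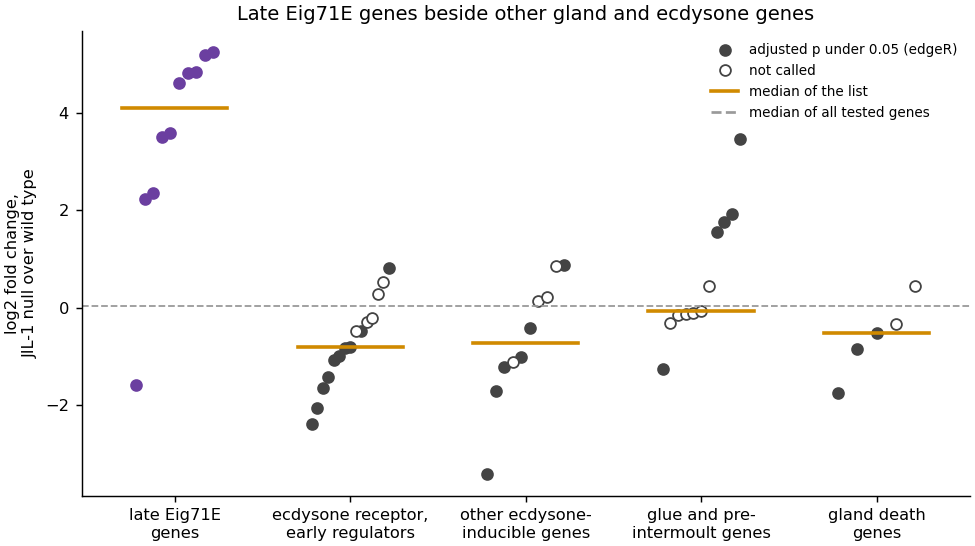
Log2 fold change of JIL-1 null over wild type for each tested gene of 5 lists, with filled circles for adjusted p under 0.05 in edgeR, orange lines at list medians and a dashed line at the median of all tested genes (0.03). The median of the late 71E genes is 4.10, with Eig71Ei at its lower bound and 4 of the 10 entering through JIL-1 null libraries alone. The 6 genes that passed the low-count filter in both genotypes have a median of 2.92. The ecdysone receptor and early regulators have a median of -0.80.

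Outside the cluster, the genes with the profile most like that of the late 71E genes were sought among 6233 genes whose mean level reached 5 CPM. Likeness was the Euclidean distance over the 4 libraries between log2(CPM + 1) values centred on each gene's mean and the median profile of the 10 genes, which was 1.74 and 1.04 in JIL-1 null libraries 1 and 2 and -1.72 and -1.15 in wild type libraries 1 and 2. The nearest were CR43428 (distance 0.282), CG43110 (0.291), C1GalTA (0.325), CecC (0.475) and CG13159 (0.522). C1GalTA, the core 1 galactosyltransferase of mucin-type O-glycosylation, stood at 161 and 121 CPM in JIL-1 null, against 17.4 and 28.7 CPM in wild type. CecC, which encodes a cecropin antibacterial peptide, stood at 95.9 and 84.2 CPM in JIL-1 null, against 12.5 and 14.8 CPM in wild type. With 4 libraries this order is a description, since the genotype difference sets most of it.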

How the data were processed

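RNA-seq of salivary glands gave 1 count table, with 2 JIL-1 null and 2 wild type libraries matched to columns by name. Per the submitters' processing notes, the aligner was GSNAP and the genome builds were BDGP5 and dm3. Its version, the counter, the annotation and strand use are not given in the sources available. The whole-number counts are as the authors deposited them. The pooled RPKM, the fold (ratio) and the p-value with its false discovery rate are the authors' deposited values, used as description only. Genes were tested on counts with edgeR 4.0.16 (R 4.3.3; quasi-likelihood, two-sided) with TMM factors after filterByExpr (minimum count 10, total 15), which kept 7958 of 9931 genes; p-values were adjusted over these genes and called at 0.05. Standard errors come from the F statistic. Alternatives used DESeq2 1.42.0, limma 3.58.1 (voom), other scalings and filters, a replicate block and leaving out each library. Neighbours, strand and exon lengths come from BDGP6.54 (Ensembl release 115), another build than the files', so no coordinates are printed; 9523 identifiers matched and 408 did not. Intervals and detection limits cover counting error only. Libraries of a genotype differed by more than sampling noise (chi-square per degree of freedom 9.17 in JIL-1 null and 23.4 in wild type). On simulated counts for 7958 genes of which 200 were changed, 69% of 2-fold and 94% of 4-fold changes were called. The simulation took each gene's dispersion from the trend over expression level, and 2446 genes were called in the data themselves. These shares therefore need not hold for the late 71E genes, whose SEs ran from 0.33 to 0.89. The members, lists and tests were chosen with earlier results of these data known. Named genes are the 10 members, JIL-1, Eig71Ee, up to 4 called genes per list, taken in order of adjusted p, 5 measured neighbours on each side of the cluster and the 5 genes of most similar profile; marker lists are given as sums. PH4alphaSG1, PH4alphaSG2, sage, eater, nimC1, srp, LysP, Lsp1gamma, Lsp2, Fbp1, Fbp2, br, Eip74EF, Hr46, Hr38 and ng2 were named after their values were seen, as were the gland markers listed. ImpE1 and ImpE2 were also named after their values were seen. No sequences are given, since no sequence file was used here.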

Additional observations from a re-analysis of the deposited data

How the results depend on the processing

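All 10 late 71E genes kept their direction under all 12 alternatives, although Eig71Eh, Eig71Ej and Eig71Ek have no value at a minimum of 5 mean CPM, where 6 of 7 tested members rose and 1 fell. At 0 to 4 wild type counts a library, Eig71Eh to Eig71Ek could not change direction under these alternatives. The kept direction therefore bears on the other 6 genes only. The calls of Eig71Eh to Eig71Ek enter these counts through the JIL-1 null libraries alone. Of 117 values of members under alternatives, 112 kept their side of the threshold and 5 did not, all of Eig71Eg, Eig71Ej or Eig71Ek. Leaving out one library at a time gave between 8 and 9 members higher and between 0 and 1 lower, with 0 where either JIL-1 null library was left out, and between 195 and 1186 genes higher and 524 and 1612 lower over the whole table. Without JIL-1 null library 1 those counts were 282 and 629, and without library 2 they were 195 and 524. Upper quartile scaling called 1690 genes higher and 1154 lower, 59.4% of them higher against 44.0% with TMM factors, and the median over all tested genes was 0.17 there, against 0.03; all 10 members kept their calls under it. DESeq2 called 587 genes higher and 9 members higher. With the replicate block the counts were 961 higher, 1300 lower and 9 and 1 of the members; across 7153 genes the deviations of same-numbered libraries had a correlation of -0.01, and no pairing was assumed, although single genes such as ImpE1 and ImpE2 differed alike by number in both genotypes. CG7372, which was not called, had a log2 fold change of 0.16 without wild type library 2, -1.05 (edgeR adjusted p = 0.00472) without wild type library 1 and -0.58 with all libraries; the cause was not tested. Depth limits the wild type values of Eig71Eh to Eig71Ek, at 0 to 4 counts a library.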

Other observations

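Among the ecdysone-inducible genes of the Imp group, ImpE1 and ImpE2 differed between libraries of one genotype rather than between genotypes. ImpE2 had 265 and 40 counts in JIL-1 null libraries 1 and 2, against 118 and 12 counts in wild type libraries 1 and 2. ImpE1 had 48 and 5 counts in JIL-1 null, against 32 and 5 in wild type. Neither was called (edgeR adjusted p = 0.628 for ImpE2 and 0.944 for ImpE1). In JIL-1 null glands the library with more of these transcripts was also the one with more late 71E RNA, and in wild type glands it was the one with less.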
